A study of Mus musculus with 6 samples.

Results

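The region described here is the mouse gene Sox9 with the gene desert beside it, taken as the 2.2 Mb window of chromosome 11 from 110900000 to 113100000 in the mm9 build. Its members are the ChIP-seq peaks of 5 lists that touch this window: 20 of 76477 peaks in all. The lists come from ES48 and ES49, cell lines of murine Ewing sarcoma induced by the fusion protein EWS-FLI1 on a Balb/c background. Both lines therefore carry EWS-FLI1, and neither was given a special treatment. EWS-FLI1 (precipitated through FLAG) and H3K27ac were mapped in ES48 and in ES49, and H3K27me3 was mapped in ES49 alone. An ES49 input sample has no peak list here and was not analysed, and no ES48 input is among the samples. Each group is 1 library with no replicate, so the values below are descriptions with no test, and whether ES48 and ES49 differ beyond library-to-library variation cannot be told. The lists give no read counts, so depth is unknown, and the absence of a peak means that none was called, not that the mark is absent.

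Sox9 encodes a transcription factor with an SRY-type HMG box that is needed for cartilage formation, for testis development and in neural crest derivatives. It sits in a long stretch poor in protein-coding genes, and enhancers far from the gene drive its expression in single tissues, including testis, developing cartilage and facial mesenchyme. In humans, rearrangements within the SOX9 locus and the desert before it cause campomelic dysplasia or Pierre Robin sequence. H3K27ac marks active promoters and enhancers, and H3K27me3 is laid down by Polycomb repressive complexes. Both modifications sit on the same lysine, so a single histone tail carries one or the other. The gene order is that of the GRCm38 RefSeq table, used for names alone. Between Kcnj2, which encodes an inward-rectifier potassium channel, and Sox9 it lists 7 genes: 5 lncRNA genes, 1 pseudogene and 1 gene annotated as protein-coding (Gm11677). Between Sox9 and Slc39a11, which encodes a zinc transporter, it lists 9 genes, all lncRNA genes. In mm9 Sox9 lies on the plus strand near 112643500 to 112649100, so the desert towards Kcnj2 is on the lower-coordinate side. Distances below run from this approximate start to the centre of a peak, and those under 1 kb depend on that approximation. The other genes and the known Sox9 enhancers were not placed in mm9 here, and no peak was matched to one of them.

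The Sox9 window held few acetylated places, Polycomb marking at the gene itself, and no EWS-FLI1 peak. ES48 had 2 H3K27ac peaks covering 1236 bp and ES49 had 5 covering 4135 bp. H3K27me3 gave 13 peaks covering 10077 bp in ES49. Neither line had an EWS-FLI1 peak, with 0 in ES48 and 0 in ES49. On the side of lower coordinates, which holds the desert, each line had a single H3K27ac peak. ES49 had 10 H3K27me3 peaks on that side, 2 of them within 5 kb of the start. Across the start or over the gene lay 1 H3K27ac peak of ES48, 1 of ES49 and 2 H3K27me3 peaks. Beyond the gene, towards higher coordinates, ES48 had 0 H3K27ac peaks, ES49 had 3, and H3K27me3 had 1 peak.

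**Figure D1:**
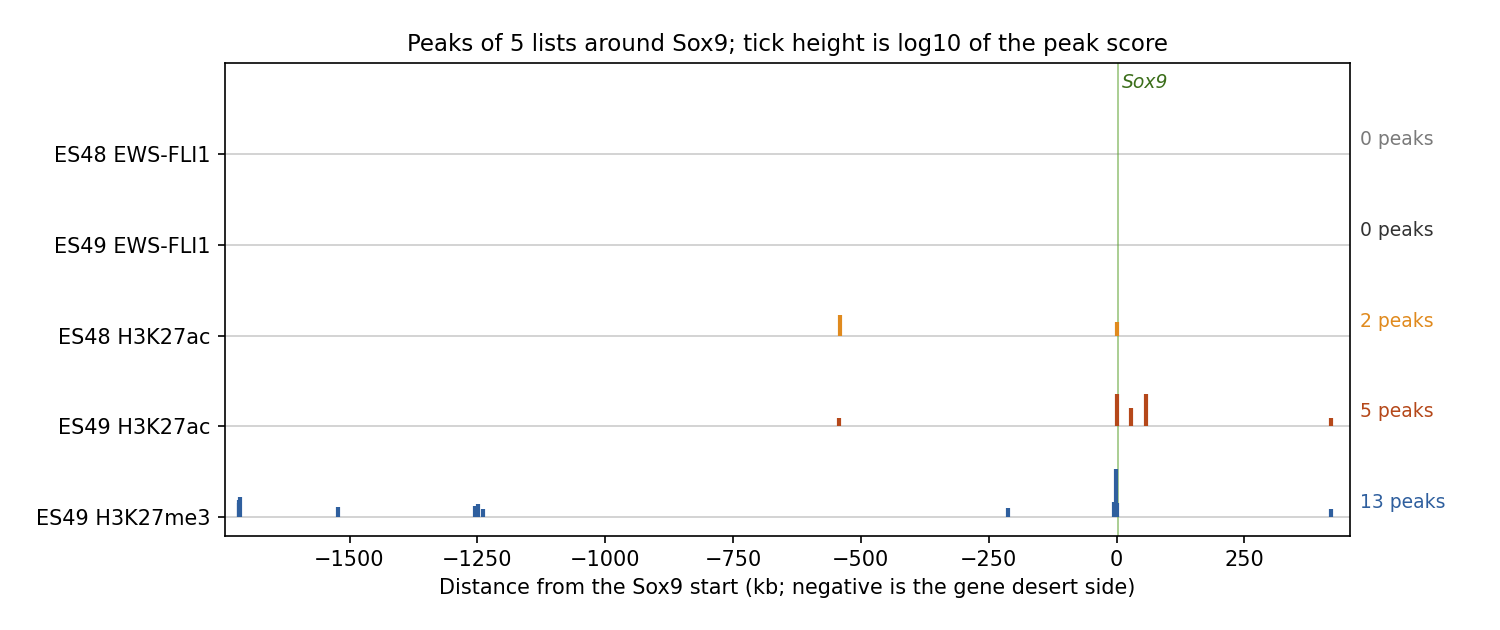
Each tick is 1 peak at its distance from the Sox9 start in kb, in a row for each of the 5 lists, taller for a higher score on a log scale, with the Sox9 gene as a green band. The 2 EWS-FLI1 rows are empty. The desert side holds a single H3K27ac peak in each line, 539.9 kb below the start in ES48 and 542.5 kb below it in ES49, and these do not overlap. Of the 13 H3K27me3 peaks, 10 gather at the low end, near 1248 kb below the start and at the gene.

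At the Sox9 start all 3 histone lists had a peak over the same stretch. In ES48 the H3K27ac peak ran from 112643649 to 112644221, a width of 573 bp, with a score of 81.7. The score is the peak caller's own, deposited by the authors, and was read only against other peaks of the same list. Of the ES48 H3K27ac list, 15.7% scored lower. In ES49 the H3K27ac peak ran from 112643366 to 112644523, a width of 1158 bp, with a score of 415.4, and 65.3% of its list scored lower. The ES48 peak lay wholly within the ES49 peak and had 49.5% of its width. Their centres lay 0.435 kb past the start in ES48 and 0.4445 kb past it in ES49, so both are centred at the beginning of the gene.

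H3K27me3 of ES49 covered the same place and ranked high in its own list. The peak from 112641186 to 112644535 was 3350 bp wide and had a score of 1591. Only 620 of 19560 H3K27me3 peaks scored higher, and 710 were wider. It reached 2314 bp below the approximate start and 1035 bp above it. Smaller H3K27me3 peaks flanked it. Those at 112639177 to 112639672 (496 bp, score 94.4) and 112640510 to 112641046 (537 bp, score 87.0) lay before the gene, and that at 112644541 to 112645008 (468 bp, score 87.4) lay within it. With H3K27me3 peaks less than 10 kb apart joined, these 4 form a domain of 5832 bp, 4851 bp of it covered, and 83.7% of the 5086 H3K27me3 domains of ES49 had less covered length. The nearest H3K27me3 peak on the desert side was 207.7 kb away and the nearest on the other side was 417.5 kb away.

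**Figure D2:**
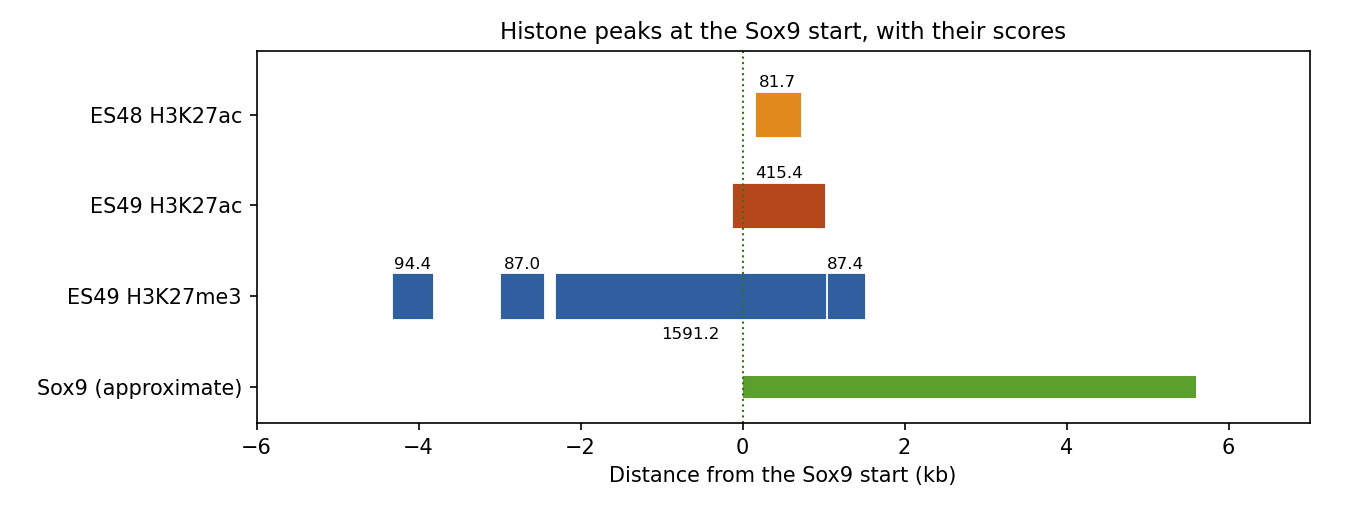
Bars show histone peaks to scale from 6 kb before to 7 kb after the Sox9 start, 1 row per list, with each peak's score printed beside it and the approximate gene in green. The ES48 and ES49 H3K27ac peaks, at 573 and 1158 bp, both lie inside the 3350 bp H3K27me3 peak of ES49, near its gene-side end.

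The acetylated and the Polycomb-marked stretches were nested. The ES49 H3K27ac peak lay wholly inside the large H3K27me3 peak of the same line and took up 34.6% of it. It ended 12 bp before the H3K27me3 peak did, and before it stood 2180 bp of the H3K27me3 peak with no H3K27ac peak called. The ES48 H3K27ac peak lay wholly inside as well and took up 17.1% of that ES49 peak, a comparison across lines because ES48 has no H3K27me3 list. H3K27ac and H3K27me3 of ES49 were mapped in separate libraries, so whether both marks sit in the same cells cannot be told. Few H3K27ac peaks met H3K27me3 anywhere. In the window 1 of 2 ES48 H3K27ac peaks overlapped it (50%, 95% Clopper-Pearson interval 1.26 to 98.7), against 1.74% of the whole ES48 list. Of the 5 ES49 H3K27ac peaks in the window, 2 did (40%, 5.27 to 85.3), against 0.890% of the whole ES49 list. The intervals cover counting error only, and counts this small set no share for the window. Of all 25970 H3K27ac peaks of ES48, 451 overlapped H3K27me3 and 121 lay wholly inside an H3K27me3 peak. Of the 29652 of ES49, 264 overlapped it and 78 lay wholly inside.

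Seen from the Polycomb side, 1 of 13 H3K27me3 peaks in the window overlapped ES48 H3K27ac, against 2.90% of the list, and 2 of 13 overlapped ES49 H3K27ac, against 1.49%. The Sox9 start peak was the only one of the 13 to overlap H3K27ac of both lines, an overlap found in 213 H3K27me3 peaks, 1.09% of the list. In the ES49 H3K27ac list 1 of the 5 window peaks met both ES48 H3K27ac and H3K27me3, against 0.651% of the list. Among those 213 peaks, 29 scored higher than the Sox9 peak and 26 were wider. Their medians were a score of 236.7 and a width of 823 bp. The Sox9 peak was above both medians. The H3K27ac peaks that met H3K27me3 had a median score of 381.6 in ES48 and 115.1 in ES49. In ES48 the Sox9 peak, at 81.7, was below its list's median of this kind, and in ES49, at 415.4, it was above.

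The desert side showed a single H3K27ac peak in each line, at nearly the same distance from Sox9 but without overlap. In ES48 the peak ran from 112103276 to 112103938 (663 bp, score 142.8), centred 539.9 kb below the start, and 28.2% of the ES48 H3K27ac list scored lower. In ES49 the peak ran from 112100856 to 112101214 (359 bp, score 51.6), centred 542.5 kb below the start, and 5.37% of the ES49 list scored lower. That score is close to the lowest of the ES49 H3K27ac list, 50.01. These peaks did not overlap: 2.061 kb lay between them, so neither counts as shared. Peaks of one line alone had a median distance of 8.26 kb to the nearest H3K27ac of the other line in ES48 and 7.55 kb in ES49, and a shorter distance was found for 30.2% of them in ES48 and for 25.5% in ES49. The nearest H3K27me3 peak was 327.3 kb from the ES48 peak and 330.0 kb from the ES49 peak.

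Long runs of DNA without a called H3K27ac peak surrounded the desert-side peak of each line. In ES48 no H3K27ac peak was called over 1758 kb before it, a run that begins below the window, and none over 539.7 kb between it and the Sox9 peak. In ES49 the same runs were 1739 kb and 542.2 kb. Among all gaps between neighbouring H3K27ac peaks, 210 of 25949 in ES48 and 259 of 29631 in ES49 were longer than the first. For the second, 997 gaps in ES48 and 949 in ES49 were longer. Beyond Sox9 the next ES48 H3K27ac peak came after 481.9 kb and lay outside the window.

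ES49 had H3K27ac peaks past the gene where ES48 had none. The stronger one ran from 112700845 to 112702231 (1387 bp, score 431.2), centred 58.04 kb past the start, and its score was the highest of the ES49 H3K27ac peaks in the window. The other ran from 112671986 to 112672856 (871 bp, score 121.2), centred 28.92 kb past the start. Lower scores were held by 65.8% and 43.4% of the ES49 list. The nearest ES48 H3K27ac, which is the peak at the Sox9 start, was 56.62 kb from the stronger and 27.76 kb from the weaker. Of the 9325 ES49 H3K27ac peaks with no overlap in ES48, only 338 scored higher than 431.2, and 2001 scored higher than 121.2. Neither overlapped H3K27me3, which was 55.84 and 26.98 kb away.

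A weak ES49 H3K27ac peak lay far past the gene at 113062444 to 113062803 (360 bp, score 50.2), centred 419.1 kb past the start. H3K27me3 of ES49 had a peak at 113062540 to 113062838 (299 bp, score 50.3), and 264 bp of it lay in the H3K27ac peak. Both scores stand close to the lowest of their lists, 50.01 for H3K27ac and 50 for H3K27me3. Only 1.11% of the H3K27ac list and 1.45% of the H3K27me3 list scored lower. This pair is the second of the 2 overlaps of the marks in ES49 within the window, and its nearest ES48 H3K27ac peak was 63.35 kb away.

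Of the H3K27ac peaks in the window, 1 of 2 in ES48 (50%, 1.26 to 98.7) and 1 of 5 in ES49 (20%, 0.505 to 71.6) overlapped the other line, and both counts are the Sox9 start. Over the whole lists 66.6% of the ES48 peaks and 68.6% of the ES49 peaks did. Overlap went with score in both lists: in the lower 50% by score it was 42.1% in ES48 and 45.7% in ES49, and in the upper 50% it was 91.2% and 91.4%. In the window both ES48 peaks and 3 of the 5 ES49 peaks scored below their list's median, which was 547.5 in ES48 and 165.9 in ES49. The ES49 peak 58.04 kb past the start is above that median and is not overlapped in ES48. Each H3K27ac peak of the window stood alone: the nearest other H3K27ac peak of its line was at least 481.9 kb away in ES48 and at least 27.46 kb away in ES49. Neighbouring H3K27ac peaks were joined into domains genome-wide, which joined none in the window. A domain of 1 peak is the usual case: such domains made up 62.5% of all domains in ES48 and 59.8% in ES49. By covered length, 33.3% of the 13484 ES49 domains were smaller than that at the Sox9 start, and 6.25% of the 13750 ES48 domains were smaller than its ES48 counterpart.

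**Figure D3:**
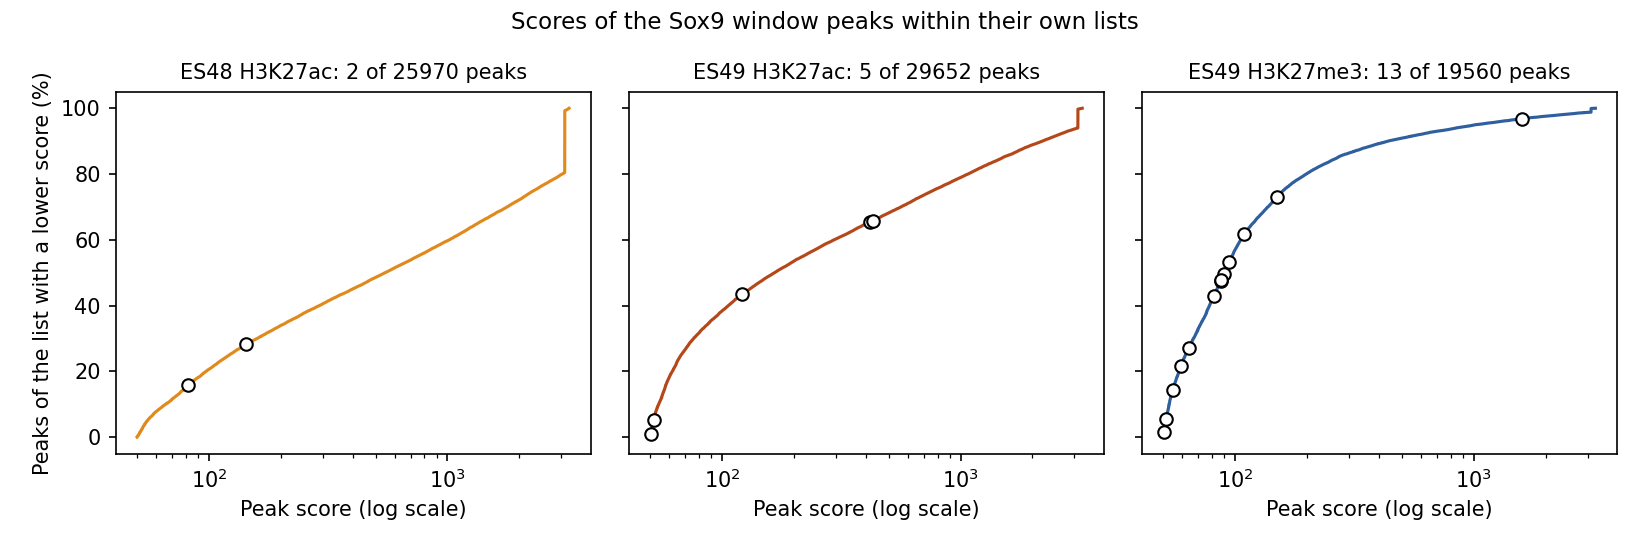
Curves give the percent of each histone list that scores lower than a given peak score (log axis), and open circles are the window's peaks. The 2 ES48 H3K27ac peaks lie at 15.7 and 28.2%, the 5 ES49 H3K27ac peaks between 1.11 and 65.8%, and of the 13 H3K27me3 peaks the one at the Sox9 start stands alone at 96.8%.

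The 8 H3K27me3 peaks on the desert side away from the gene lay in a few places, and 6 of them scored below the list's median of 89.98. At the low end of the window, towards Kcnj2, lay 3 peaks: 110926328 to 110926830 (503 bp, score 89.3), 110926889 to 110927735 (847 bp, score 109.1) and 110927934 to 110928829 (896 bp, score 150.1). They begin 1717 kb below the Sox9 start and form a domain of 2502 bp with 2246 bp covered, larger by covered length than 65.1% of H3K27me3 domains. Kcnj2 was not placed in mm9, so whether these 3 peaks lie in the desert or at that gene cannot be told. A lone peak at 111121359 to 111121963 (605 bp, score 59.1) followed, 1522 kb below the start. Nearer to the desert-side H3K27ac peaks came another 3, spread over 15230 bp. They lay at 111388685 to 111389086 (402 bp, score 64.1), 111394922 to 111395873 (952 bp, score 81.4) and 111403441 to 111403914 (474 bp, score 51.4). Closest to Sox9 on this side, apart from the peaks at the gene, was 112431220 to 112431467 (248 bp, score 54.7), 212.2 kb below the start. Over the whole H3K27me3 list 2.90% of peaks overlapped ES48 H3K27ac and 1.49% overlapped ES49 H3K27ac, so an overlap is rare anywhere. None of the 8 desert-side peaks away from the gene overlapped H3K27ac of either line. Nor did the smaller H3K27me3 peaks beside the large one at Sox9, of which that within the gene began 0.017 kb after the ES49 H3K27ac peak ended. Between 111403914 and 112431220 no H3K27me3 peak was called over 1027 kb, a run that holds the desert-side H3K27ac peak of each line.

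EWS-FLI1 was not called near Sox9 in either line. In ES48 the nearest EWS-FLI1 peak on the same chromosome was at 113726705 to 113726852 (148 bp, score 61.7), 1.08 Mb past the start, and the nearest on the desert side was at 108873099 to 108873358 (260 bp, score 58.4), 3.77 Mb below it. In ES49 they were at 119509634 to 119510334 (701 bp, score 66.2), 6.87 Mb past the start, and at 75036986 to 75037307 (322 bp, score 55.6), 37.6 Mb below it. Chromosome 11 has EWS-FLI1 peaks at 33 places in ES48 and 8 in ES49, or 0.278 and 0.0674 per Mb. Over all chromosomes the lists have 0.239 per Mb in ES48 and 0.265 in ES49. The run without an EWS-FLI1 peak around Sox9 was 4853 kb in ES48, where 99 of 593 gaps were longer. In ES49 it was 44472 kb, and 5 of 660 gaps were longer. Over the genome an empty window is common. The genome, between the first and last peak of each chromosome, was cut into 1156 other windows of 2.2 Mb, and 802 of them (69.4%) held no EWS-FLI1 peak of either line. Of the histone peaks in the window, the H3K27me3 peak 419.2 kb past the start came closest to EWS-FLI1, at 663.9 kb from the ES48 peak.

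Set beside the rest of the genome, the Sox9 window had less H3K27ac than most windows of its length in both lines, and more H3K27me3 than most over all chromosomes but not on chromosome 11 alone. In ES48 it had 0.909 H3K27ac peaks per Mb, against 18.4 over chromosome 11 and 10.1 over all chromosomes. In ES49 it had 2.27 per Mb, against 27.04 over chromosome 11 and 11.5 over all chromosomes. H3K27me3 had 5.91 per Mb, against 23.3 over chromosome 11 and 7.60 over all chromosomes. Ranked among the 1156 windows by covered length, 113 had less H3K27ac in ES48, 258 had less in ES49, and 823 had less H3K27me3. The median window had 24.2 kb of H3K27ac in ES48, 16.1 kb in ES49 and 2.69 kb of H3K27me3. Among the 51 other windows of chromosome 11, which has more peaks per Mb than the genome in all 3 histone lists, 4 had less H3K27ac in ES48, 6 had less in ES49, and 21 had less H3K27me3.

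The windows of the same length on either side were richer in every histone list. From 108700000 to 110900000 there were 38 ES48 and 53 ES49 H3K27ac peaks and 26 H3K27me3 peaks, and from 113100000 to 115300000 there were 90, 135 and 88. The edges of the window do not set this pattern on the desert side, where the next H3K27ac peak outside lay 554.7 kb away in ES48 and 538.4 kb away in ES49. On the other side the next lay close outside, 26.16 kb away in ES48 (score 134.8) and 17.29 kb away in ES49 (score 51.4). ES48 H3K27ac covered more length than ES49 H3K27ac in 941 of the 1156 windows (81.4%), and the Sox9 window was the other way round. By number of H3K27ac peaks ES49 exceeded ES48 in 489 of the windows (42.3%), as it did in the Sox9 window. H3K27me3 peaks outnumbered ES49 H3K27ac peaks in the Sox9 window, 13 against 5, as they did in 263 of the 1156 windows (22.8%). These ranks describe single libraries and were not tested.

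**Figure D4:**
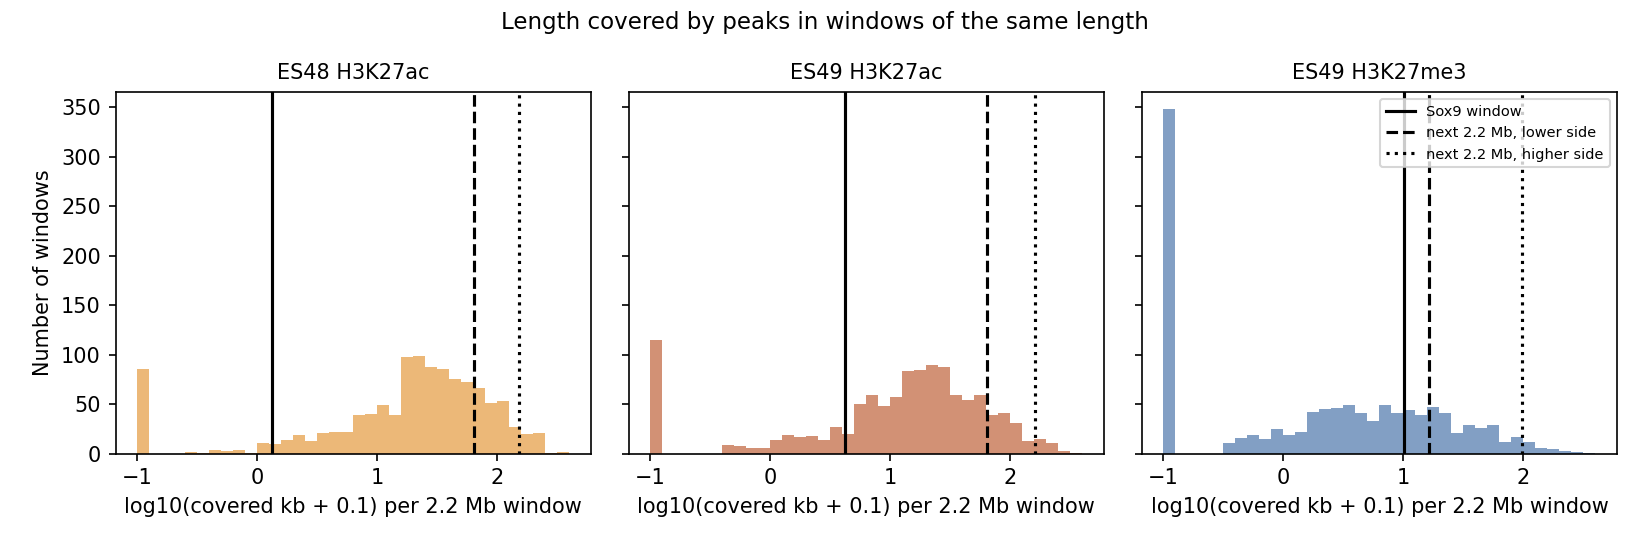
Histograms of the 1156 windows of 2.2 Mb by the length covered by peaks, on a log10(kb + 0.1) axis, for each histone list, with lines for the Sox9 window (solid) and for the next 2.2 Mb on its lower (dashed) and higher (dotted) side. The solid line stands at 1.24 kb for ES48 H3K27ac, 4.135 kb for ES49 H3K27ac and 10.1 kb for H3K27me3, left of both flanking windows in every panel.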

How the data were processed

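Of the 6 samples, 5 have a peak list, each from 1 library. The submitters' processing notes name the mm9 build, the aligner Bowtie 1.1.1 and SAMtools 1.2. Peaks are named after MACS in the deposited files, and no version, control or filter is stated in the labels or files used here. The authors deposited a position and a score for every peak. The scale of that score is not stated, so it was read only within a list. Starts were raised by 1 to count from 1. Members were all peaks touching the window, and every one is named. Members, lists and settings were chosen with earlier results of these data known. The shares of the upper and lower 50% by score, the flanking windows and the distances of line-specific peaks were added after the values were seen. An overlap was 1 bp or more in common. H3K27ac peaks were joined into domains at the planned distance, which is below the 27.46 kb that separates the closest pair of one line in the window, and H3K27me3 peaks less than 10 kb apart were joined, a step added afterwards. The Sox9 position is approximate, and the GRCm38 gene table served for names alone. Promoter motifs were planned but not searched, as no Sox9 promoter sequence was used here. The overlap and joining code was checked on simulated intervals. The scripts ran under Python 3.11.15 with pandas 2.3.3, numpy 2.4.6, matplotlib 3.10.9 and, for the intervals, scipy 1.17.1.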

Additional observations from a re-analysis of the deposited data

How the results depend on the processing

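Of 35 values recomputed under an alternative, 22 stayed within 1.5 times the reported value and 13 moved by more. Some of the 22 could not have moved and say nothing about stability. These are the EWS-FLI1 values, which are 0 under any setting, and the H3K27ac domains joined at 5 kb, as the larger planned distance already joined none. Most that moved did so when only the upper 50% of each list by score was kept: the ES48 H3K27ac peaks and domains then numbered 0 (2 reported), as did those within 100 kb of the start (1 reported), the ES49 H3K27ac peaks and domains to 2 (5 reported), and the H3K27me3 peaks to 4 (13 reported). The shared H3K27ac peaks were then 0 in each line (1 reported), and H3K27me3 overlapped ES48 H3K27ac at 0 peaks (1 reported) and ES49 H3K27ac at 1 (2 reported), the Sox9 start. With peaks within 1 kb counted, 2 H3K27me3 peaks met ES48 H3K27ac. Among windows of chromosome 11 alone, 11.8% had less ES49 H3K27ac (22.3% over all chromosomes) and 41.2% had less H3K27me3 (71.2%). An overlap of 50% of the shorter peak, joining at 5 kb, distance from the nearest edge and ranking by number of peaks left every value within that range. No paired analysis was possible because each group is 1 library. Depth is unknown, so how far it limits the calls in each line was not tested.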
